A study of Mus musculus with 9 samples.

Results

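The genes described here are 36 targets and partners of ATF4, the transcription factor that answers amino acid shortage. They were taken by gene symbol from a list that was drawn up with earlier results of these data known, by a rule that uses no measured value, and all 36 were found among the 26202 genes of the deposited table. Of these, 35 had a mean of at least 1 CPM (counts per 1e6 reads, scaled by TMM, the trimmed mean of M-values) over the 9 libraries and were tested among 12868 genes. Cbs, which makes cystathionine from homocysteine, had 0 to 0.254 CPM and was not tested.

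Messenger RNA was measured in ATDC5 cells, a chondrogenic line from mouse that models the making of cartilage in culture. There were 9 libraries, 3 from each of a control, an acetate and an ethanol group, and the study asked whether acetate, a product of ethanol, could carry effects of ethanol on bone and on cartilage cells. All groups, control included, received the same differentiation supplements of ascorbate, beta-glycerophosphate and insulin, transferrin and selenium. Neither the dose nor the duration of either treatment was given in the sources used here. The labels do not name separate cultures for the replicates, so p-values reflect only how far these samples spread, and that spread may be technical.

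As background, several kinases phosphorylate the initiation factor eIF2 when amino acids run short, when proteins misfold in the endoplasmic reticulum or when haem or mitochondria fail. General translation then falls while ATF4 protein is made more, because small upstream reading frames in its mRNA are bypassed. ATF4 is therefore controlled largely through translation, and its activity is usually read from its target genes: amino acid transporters, enzymes of serine, glycine, asparagine and cysteine metabolism, tRNA synthetases, and feedback regulators. In growing cartilage ATF4 is known for supporting the high amino acid demand of matrix-producing chondrocytes and osteoblasts.

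Reads counted in genes, as recovered from the values, came to 28.7 to 41.9 M per library. On this reckoning 1 read was worth 0.0231 to 0.0348 CPM. All 5 chondrogenic markers were present. Their summed levels were 9636 to 12822 CPM in control, 5255 to 6066 CPM in acetate and 4697 to 5821 CPM in ethanol. Such a sum is weighted to the most abundant genes and does not show how each marker moved. Of the marker lists of 5 other cell types, 1 of 18 genes reached a mean of 1 CPM, no list summed to more than 2.13 CPM in any control library, and Tyrobp, Myod1 and Myog were at 0 everywhere. In such bulk samples, fewer cells of a type and less RNA per cell cannot be told apart.

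Acetate replicate 2 stood apart from the other 2 acetate libraries, and its deviation followed the GC content of transcripts, with Pearson r = 0.808 across 12746 genes of these libraries. The 35 tested members showed the same slope, r = 0.75 across genes, as a description. The 13 members under 50% GC had a median of -0.08 in log2 for acetate replicate 2 minus the mean of the other 2 acetate libraries, and the 12 members at 55% GC or more had a median of 0.49. This library held the highest of the 9 values for 23 of the 35 members and the lowest for 4. Each comparison is therefore also given without acetate replicate 2, and with the GC trend removed from every library.

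**Figure D1:**
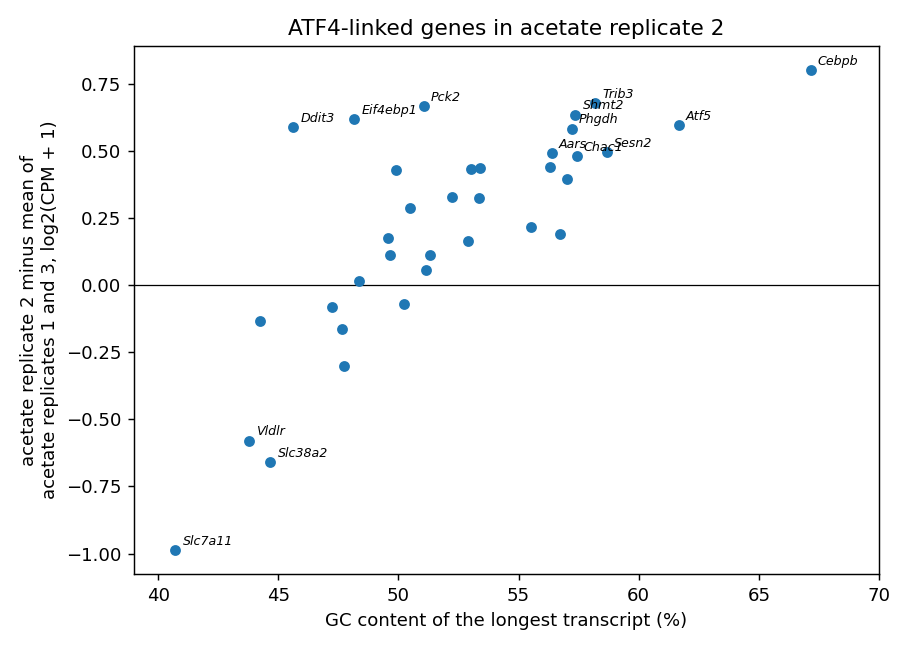
Deviation of acetate replicate 2 from the mean of acetate replicates 1 and 3 (vertical axis, log2) against the GC content of each member's transcript (horizontal axis, percent), 1 point per tested member. Points rise from left to right, with r = 0.75 over 35 genes, and Slc7a11, the member of lowest GC content at 40.7%, is the lowest point.

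The C/EBP-ATF response element is the composite DNA motif through which ATF4, with a C/EBP partner, is known to act. Its core, TGATGNAA on one strand and TTNCATCA on the other, was searched on both strands in RefSeq promoter windows on GRCm38.p6, from 250 bases before to 50 bases after each start that RefSeq gives, which need not be the outermost start of the gene. Of the 29 members with a window, 11 (37.9%) held the core, against 4.51% of all 27025 genes with a window. Counted by windows, the shares were 31.4% and 3.97%. Since the members were listed as targets and partners of ATF4, a higher share was built into their choice. It is not a finding about these libraries. The 11 were Aars, Asns, Atf3, Chac1, Gars, Nupr1, Pck2, Slc1a4, Slc7a11, Trib3 and Vldlr. A match is a description of these letters and not a site of binding, which was not measured. The matches of Aars, Asns, Atf3, Nupr1 and Vldlr lie within the span of the gene on GENCODE M21. Stretches are shown for 4 holders that passed in a comparison with control without acetate replicate 2. Vldlr, Nupr1 and Aars passed there too and are not shown, since their stretches overlap annotated exons. Each is read 5′ to 3′ on the gene's own strand with the matches in capitals and 30 bases on either side. That of Slc7a11 lies at chr3:50443623-50443709 on the minus strand and holds 2 matches in opposite orientation. The stretch of Atf3 at chr1:191183406-191183473 (minus strand) lies inside the gene, before an internal start, and holds 1 match. Those of Pck2 at chr14:55540133-55540200 (plus strand) and Chac1 at chr2:119351019-119351086 (plus strand) hold 1 each.
Slc7a11: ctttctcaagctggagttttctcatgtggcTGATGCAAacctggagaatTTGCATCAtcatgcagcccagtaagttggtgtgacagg
Atf3: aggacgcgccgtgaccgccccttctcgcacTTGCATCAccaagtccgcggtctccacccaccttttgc
Pck2: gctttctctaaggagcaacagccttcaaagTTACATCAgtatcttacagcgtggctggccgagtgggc
Chac1: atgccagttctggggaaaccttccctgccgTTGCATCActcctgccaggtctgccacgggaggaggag

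Under acetate, most members lay above control by small amounts, and none of them passed the test. Values are differences of log2(CPM + 1), which understate the change of genes with low levels. The median over the 35 members was 0.30, with 33 positive, beside a median of -0.01 and 48.7% positive over all tested genes. With limma and Benjamini-Hochberg adjustment, 0 of 35 members had an adjusted p under 0.05 while 1.00% of all genes did. At an unadjusted p under 0.05 there were 17 members, against 14.6% of all genes, and voom on the recovered reads also called 0 members. All 3 acetate values lay above all 3 control values for 17 members, against 11.4% of all genes, and below them for 1 member, Slc38a2, against 8.14%.

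Without acetate replicate 2, the median of the members was 0.27 with 34 of 35 positive, beside a median of 0.02 and 54.6% positive over all genes. Then 3 members were higher past the threshold (Atf3, Chac1 and Slc7a11), where 1.95% of all genes were, and 0 were lower, where 1.53% were. With the GC trend removed, the median of the members was 0.29 with 31 positive, beside 0.00 and 50.3% over all genes. In that fit 11 members were past the threshold, all higher, where 5.05% of all genes were. These were Atf3, Phgdh, Psat1, Asns, Chac1, Slc7a11, Slc7a5, Slc3a2, Aars, Nars and Stc2. Without acetate replicate 2, adjusted p with limma was 0.090 for Phgdh, 0.077 for Psat1, 0.056 for Asns and 0.054 for Slc7a5. It was 0.056 for Slc3a2, 0.11 for Aars, 0.097 for Nars and 0.056 for Stc2. Of the 17 alternative fits described below, 2 called each of Phgdh, Psat1, Asns, Slc3a2, Aars, Nars and Stc2, and 3 called Slc7a5. With replicate number as a block, 0 members and 2.28% of all genes were called, and 19 members had an unadjusted p under 0.05, against 19.5% of all genes.

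Under ethanol, the members lay on both sides of control, and a few of them carried the largest differences. The stress factor Atf3 rose, and the cystine transporter Slc7a11 had the largest difference of any member, at 1.02. The median over the 35 members was 0.13 with 23 positive, beside a median of -0.00 and 49.8% positive over all genes. With limma, 1 member (Atf3) passed the threshold, where 3.93% of all genes did. In the fit with replicate number as a block there were 2 (Atf3 and Slc7a11), where 8.35% of all genes were called. At an unadjusted p under 0.05 with limma there were 5 of the 35 members, against 19.0% of all genes. All 3 ethanol values lay above control for 12 members, against 20.1% of all genes, and below it for 3 (Pck2, Slc38a2 and Vldlr), against 23.3%.

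Leaving out acetate replicate 2, which no ethanol difference contains, changed the ethanol calls through the shared estimate of spread. Then 7 members were higher (Atf3, Atf5, Nupr1, Slc7a11, Slc7a5, Slc3a2 and Aars), where 10.2% of all genes were. The 2 members that were lower were Pck2 and Vldlr, where 11.3% of all genes were lower. With limma and the replicate block, adjusted p was 0.11 for Atf5, 0.20 for Nupr1, 0.059 for Slc7a5 and 0.10 for Slc3a2. It was 0.29 for Aars, 0.31 for Pck2 and 0.23 for Vldlr. With the GC trend removed, the median of the members was 0.14 with 24 positive, beside -0.00 and 49.7% over all genes. In that fit 9 members were called, where 15.9% of all genes were. Atf3, Atf5, Chac1, Slc7a11, Slc7a5, Slc3a2, Slc6a9 and Aars were higher and Vldlr was lower. Adjusted p in that fit was 0.10 for Nupr1 and 0.20 for Pck2. Without acetate replicate 2 it was 0.064 for Chac1 and for Slc6a9.

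Set directly against ethanol, acetate gave higher values of Gpt2, an alanine-forming enzyme, and of Stc2, a secreted glycoprotein. The median over the 35 members was 0.15 with 29 positive, beside a median of -0.01 and 48.9% positive over all tested genes. Without acetate replicate 2 the median of the members was 0.07 with 26 positive, beside 0.02 and 53.4% over all genes. With the GC trend removed it was 0.12 with 23 positive, beside -0.00 and 49.6% over all genes. With limma, 2 members passed the threshold, where 3.73% of all genes did, and with the replicate block 3 did (Eif4ebp1 in addition), where 6.40% did. At an unadjusted p under 0.05 with limma there were 11 of the 35 members, against 21.1% of all genes. All 3 acetate values lay above all 3 ethanol values for 11 members, against 15.3% of all genes, and below them for 1, Slc7a11, against 12.5%. Without acetate replicate 2 there were 3 higher members (Gpt2, Cth and Stc2), where 5.72% of all genes were, and 0 lower, where 2.89% were. With the GC trend removed, 7 were called, where 11.1% of all genes were. Psat1, Asns, Gpt2, Cth, Stc2 and Vldlr were higher in acetate and Atf5 was lower. Without acetate replicate 2, adjusted p was 0.081 for Psat1, 0.053 for Asns, 0.053 for Vldlr and 0.083 for Atf5.

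**Figure D2:**
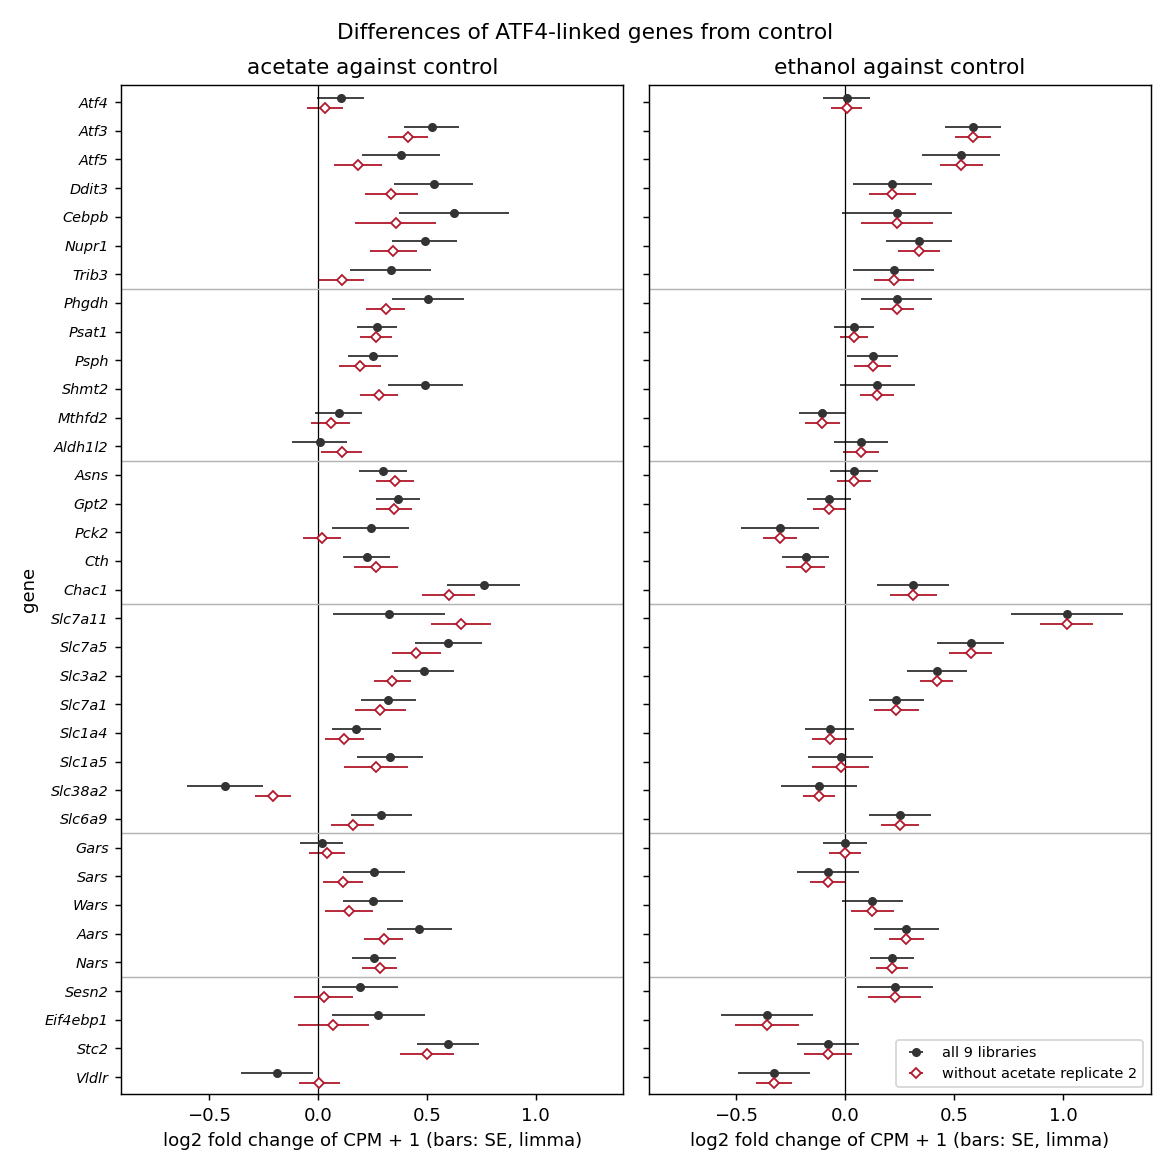
Difference in log2(CPM + 1) of each tested member, with its standard error, for acetate against control (left) and ethanol against control (right), arranged by role. Filled circles are the fit of all 9 libraries and open diamonds the fit without acetate replicate 2. In acetate 33 of 35 members lie to the right of 0, in ethanol 23 of 35.

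The levels of the members spread widely. Per kilobase of the longest annotated transcript, Gars was the highest in control at 157 CPM per kb. Atf4 followed at 134, Asns at 98.4 and Shmt2 at 98.1. Among the tested members Slc7a11 was the lowest at 2.81 CPM per kb, next to Slc1a5 at 4.61 and Stc2 at 6.12.

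**Figure D3:**
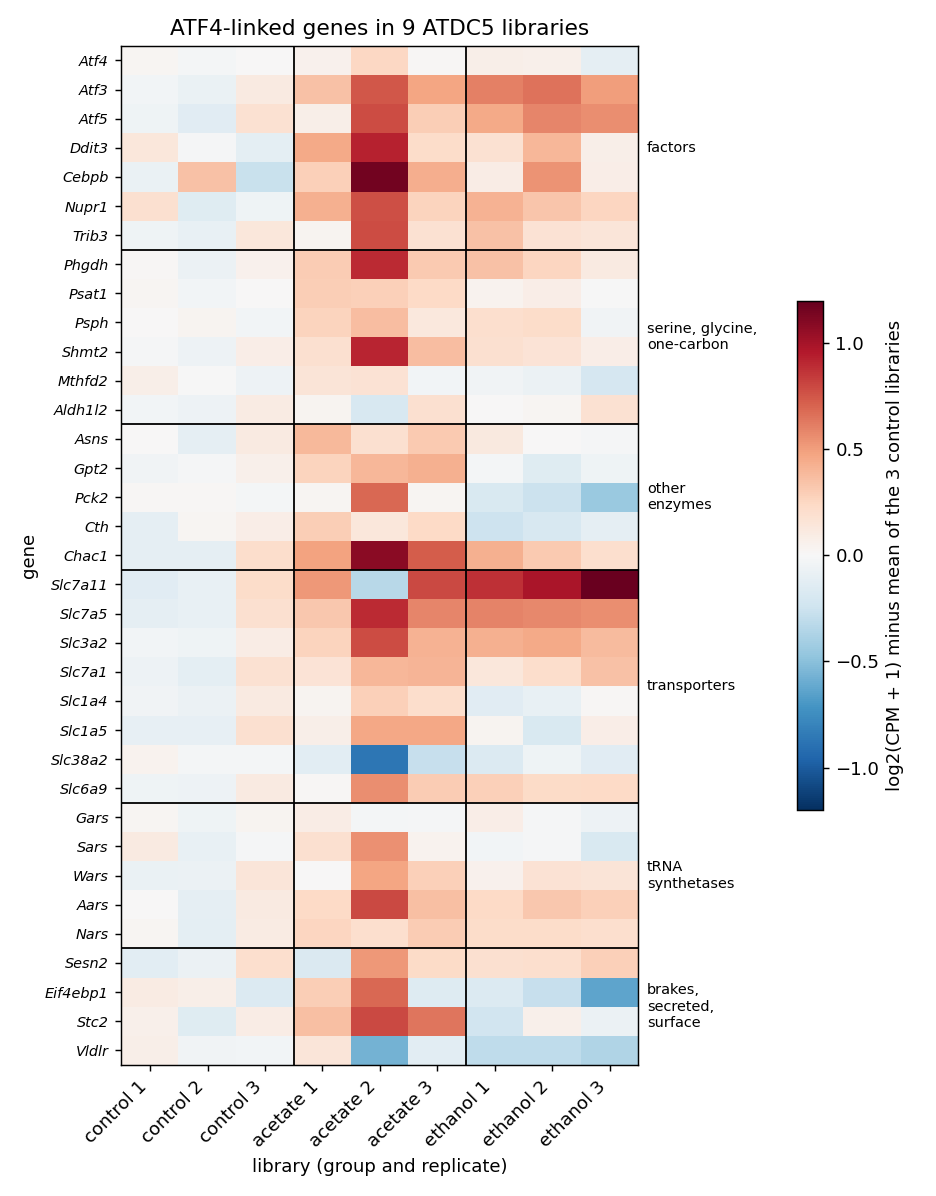
Level of each tested member in each of the 9 libraries, as log2(CPM + 1) minus the mean of the 3 control libraries, with rows by role and columns by group. Acetate replicate 2 is the most intense column, high for most members and lowest of all 9 columns for Slc7a11, Slc38a2, Vldlr and Aldh1l2.

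All 7 transcription factors and feedback regulators had positive mean differences from control, from 0.10 to 0.62 under acetate and from 0.01 to 0.59 under ethanol. Several of them overlapped control in single libraries. The smallest under both treatments was that of Atf4, which was -0.05 under acetate with the GC trend removed. Atf4 (chromosome 15, 80255184 to 80257541 on GRCm38), the factor after which the group is named, had 275, 267 and 272 CPM in control, 281, 322 and 275 CPM in acetate and 284, 283 and 252 CPM in ethanol. The ethanol values of Atf4 overlapped control on both sides, and the lowest acetate value lay within 1 CPM of the highest control value.

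Atf3 (chromosome 1, 191170296 to 191218039), a stress-induced bZIP factor downstream of ATF4, had 30.9, 29.9 and 34.2 CPM in control. It had 40.5, 53.6 and 44.4 CPM in acetate and 48.5, 50.3 and 45.3 CPM in ethanol. All 6 treated libraries lay above all 3 controls, and the treatments overlapped. Under ethanol the difference was 0.59 ± 0.13 (SE, n = 3 per group) with limma, adjusted p = 0.038. It was 0.034 with the replicate block and 0.0014 without acetate replicate 2. The call ended when any control library (adjusted p = 0.18, 0.14 and 0.079 without replicates 1, 2 and 3) or any ethanol library (0.12, 0.18 and 0.11) was left out, and adjusted p ran from 0.00077 to 0.18 over the alternatives. Under acetate the difference was 0.52 ± 0.13, adjusted p = 0.097, and 0.41 ± 0.09, adjusted p = 0.039, without acetate replicate 2 (range 0.0065 to 0.37).

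Atf5, a related factor whose mRNA is also translated under stress, had 137, 129 and 161 CPM in control, 148, 244 and 175 CPM in acetate and 194, 213 and 209 CPM in ethanol. Ethanol lay above control in every library, with a difference of 0.53 ± 0.18 and adjusted p = 0.14, or 0.0056 without acetate replicate 2 (range 0.00072 to 0.43). Acetate overlapped both other groups. Nupr1, a small stress-induced chromatin protein, had 74.1, 58.6 and 62.5 CPM in control, 87.4, 112 and 78.1 CPM in acetate and 86.8, 82.0 and 77.8 CPM in ethanol. All treated libraries of Nupr1 lay above all controls. Its ethanol difference was 0.34 ± 0.15, adjusted p = 0.26, or 0.033 without acetate replicate 2 (range 0.026 to 0.58).

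Ddit3, which encodes the pro-apoptotic factor CHOP, had 55.1, 49.4 and 45.9 CPM in control, 68.9, 95.7 and 58.3 CPM in acetate and 56.7, 66.3 and 52.5 CPM in ethanol. Acetate lay above control in every library and ethanol overlapped it. Cebpb, the C/EBP partner, had 34.4 ± 8.08 CPM (SD, n = 3) in control, 54.6 ± 19.2 in acetate and 40.4 ± 7.83 in ethanol, with overlap among all groups. Trib3, a pseudokinase that feeds back on ATF4, had 38.5 ± 3.38, 50.1 ± 14.8 and 45.1 ± 3.66 CPM, and its lowest ethanol value cleared the highest control value by less than 1 CPM. None of these 3 genes passed the threshold in the fit of all 9 libraries, without acetate replicate 2, with the replicate block or with the GC trend removed. With block and GC removal together, Cebpb passed for acetate against control at adjusted p = 0.026 (highest over the alternatives 0.66).

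Serine is made from a glycolytic intermediate by Phgdh, Psat1 and Psph in turn. In acetate all 3 lay above control in every library. Psat1 had 212, 204 and 209.7 CPM in control, 256, 254 and 247 CPM in acetate and 215, 221 and 208 CPM in ethanol. The acetate libraries of Psat1, replicate 2 included, sat together above all others, and ethanol overlapped control. The Psat1 difference of acetate from control was 0.27 ± 0.09, adjusted p = 0.22, and it passed with the GC trend removed at 0.044 (range 0.0092 to 0.58). From ethanol it was 0.23 ± 0.09, adjusted p = 0.20, or 0.043 with the GC trend removed (range 0.0085 to 0.48).

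Phgdh, the entry enzyme, had 99.6, 94.0 and 102 CPM in control, 122, 184 and 123 CPM in acetate and 126, 118 and 106 CPM in ethanol. All treated values lay above control. The acetate difference of Phgdh was 0.51 ± 0.16, adjusted p = 0.20. It was 0.31 ± 0.09 at adjusted p = 0.090 without acetate replicate 2, and passed with the GC trend removed at 0.045 (range 0.017 to 0.53). Psph had 74.3 ± 1.64 CPM in control, 89.0 ± 7.77 in acetate and 81.4 ± 8.07 in ethanol, with ethanol overlapping control.

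Downstream, the mitochondrial folate enzymes moved less evenly. Shmt2, which splits serine into glycine and a one-carbon unit, had 222, 215 and 237 CPM in control, 256, 424 and 290.2 CPM in acetate and 257, 251 and 238 CPM in ethanol. The 424 CPM came from acetate replicate 2, and all treated values were above control, in ethanol replicate 3 by less than 1 CPM. Mthfd2, the next enzyme, had 185 ± 8.27, 198 ± 15.4 and 172 ± 10.3 CPM, and Aldh1l2, which oxidises formyl-folate, had 236 ± 14.3, 239 ± 31.4 and 249 ± 17.2 CPM. Both overlapped control under both treatments, although acetate exceeded ethanol in every library for Mthfd2.

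Among the remaining enzymes, all 5 tested genes had a positive difference of acetate from ethanol. The median was 0.44, or 0.32 without acetate replicate 2. Under ethanol 2 of the 5 had a positive difference from control. Gpt2 (chromosome 8, 85492576 to 85527560), the mitochondrial alanine transaminase, had 107, 109.5 and 116 CPM in control, 134, 147 and 149.6 CPM in acetate and 109, 99.9 and 107 CPM in ethanol. The acetate libraries stood above all 6 others, and ethanol overlapped control.

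For Gpt2 the acetate value exceeded ethanol by 0.44 ± 0.10 (SE, n = 3 per group), adjusted p = 0.045 with limma. Adjusted p was 0.042 with the replicate block and 0.012 without acetate replicate 2. It was 0.050004 under median-of-ratios scaling and 0.17 in a fit of the 6 libraries compared. Leaving out single libraries ended the call for control replicates 1, 2 and 3 (0.10, 0.086 and 0.073), acetate replicates 1 and 3 (0.054 and 0.070) and ethanol replicates 1, 2 and 3 (0.13, 0.22 and 0.16). The range over the alternatives was 0.0067 to 0.22.

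Asns, asparagine synthetase, had 199, 184 and 213 CPM in control, 260.2, 226 and 247 CPM in acetate and 215, 199 and 197 CPM in ethanol. Its acetate libraries lay above all others. The difference from control was 0.30 ± 0.11, adjusted p = 0.25, and 0.027 with the GC trend removed (range 0.011 to 0.62). From ethanol it was 0.26 ± 0.11, adjusted p = 0.22, and 0.023 with the GC trend removed (range 0.0087 to 0.49). Cth, which releases cysteine from cystathionine, had 10.5, 11.6 and 12.1 CPM in control, 14.3, 12.6 and 13.7 CPM in acetate and 9.45, 9.86 and 10.5 CPM in ethanol. Acetate again stood above both other groups, and exceeded ethanol by 0.41 ± 0.11, adjusted p = 0.076, or 0.023 without acetate replicate 2 (range 0.008 to 0.26).

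Pck2, the mitochondrial PEP carboxykinase, was the member whose acetate and ethanol libraries lay on opposite sides of control. It had 117, 118 and 114 CPM in control, 118, 188 and 118 CPM in acetate and 102, 97.1 and 85.0 CPM in ethanol. The acetate excess rested on replicate 2, since the other 2 acetate values cleared the highest control by less than 1 CPM. Ethanol lay below control by -0.30 ± 0.18, adjusted p = 0.41, and the gene fell at 0.025 without acetate replicate 2 (range 0.023 to 0.79).

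Chac1, which degrades glutathione and is a strong ATF4 target, had the largest acetate difference of any member. It had 62.0, 62.0 and 77.3 CPM in control, 93.3, 142 and 111 CPM in acetate and 90.0, 83.0 and 76.7 CPM in ethanol. Acetate lay above both other groups, and ethanol overlapped control at its lowest value. Against control the acetate difference was 0.76 ± 0.17, adjusted p = 0.071, and 0.60 ± 0.12, adjusted p = 0.027, without acetate replicate 2 (range 0.0073 to 0.32). The ethanol difference was 0.31 ± 0.17, adjusted p = 0.35, and 0.043 with the GC trend removed (range 0.027 to 0.74).

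**Figure D4:**
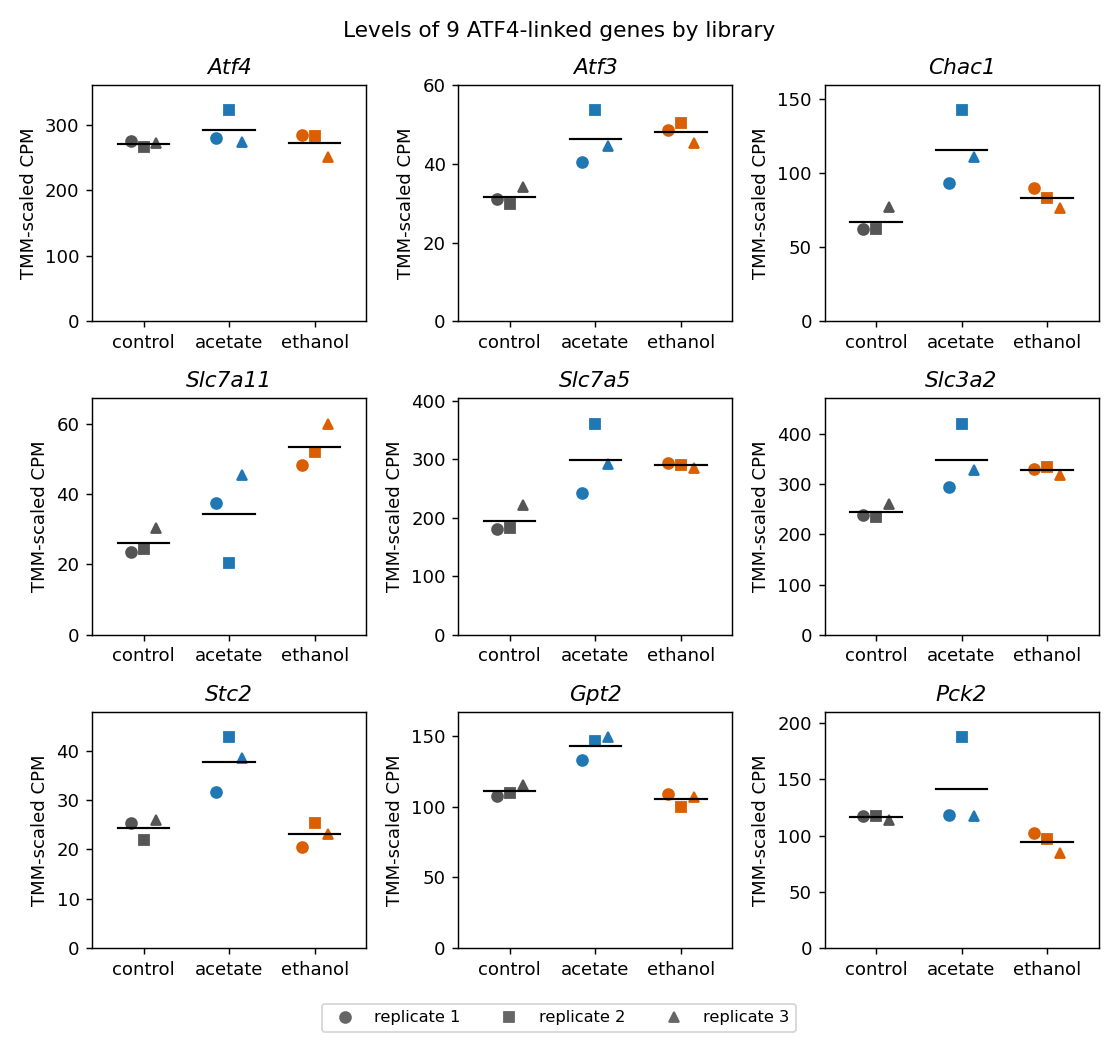
Level (CPM, linear axis from 0) of selected members in each library, with points for the 3 libraries of each group and a bar at their mean. Atf3 is above control in all 6 treated libraries, Gpt2, Stc2 and Chac1 are highest in acetate, and Slc7a11 is highest in ethanol and lowest in acetate replicate 2.

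The largest ethanol difference among the members was that of a transporter. Slc7a11 (chromosome 3, 49892526 to 50443614), the cystine importer of system xc-, had 23.4, 24.2 and 30.2 CPM in control, 37.4, 20.3 and 45.4 CPM in acetate and 48.2, 52.0 and 60.0 CPM in ethanol. Ethanol stood above all 6 other libraries. In acetate, replicates 1 and 3 lay above control and replicate 2 below it.

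For Slc7a11 the ethanol difference was 1.02 ± 0.26, a ratio of 2.02 of CPM + 1, with adjusted p = 0.063. It was 0.031 with the replicate block and 0.00067 without acetate replicate 2 (range 0.00026 to 0.25). The acetate difference was 0.33 ± 0.26 with adjusted p = 0.50, and 0.66 ± 0.14 with adjusted p = 0.029 without acetate replicate 2. With the GC trend removed it was 0.72 at 0.015 (range 0.0018 to 0.81).

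Slc7a5 and Slc3a2 encode the light and heavy chains of the large neutral amino acid transporter, and the heavy chain also pairs with Slc7a11. Slc7a5 had 181, 183 and 222 CPM in control, 243, 361 and 292 CPM in acetate and 294, 291 and 286 CPM in ethanol. Slc3a2 had 238, 235 and 261 CPM in control, 294, 420.4 and 328 CPM in acetate and 330.1, 335 and 318 CPM in ethanol. For both chains all 6 treated libraries lay above all controls, and the treatments overlapped. The ethanol difference of Slc7a5 was 0.58 ± 0.15, adjusted p = 0.075, or 0.0037 without acetate replicate 2 (range 0.00072 to 0.30). That of Slc3a2 was 0.42 ± 0.14, adjusted p = 0.14, or 0.0048 without it (range 0.0020 to 0.43). Under acetate the differences were 0.60 ± 0.15 and 0.49 ± 0.14, with adjusted p = 0.11 and 0.15, and both passed with the GC trend removed at 0.022 and 0.027 (ranges 0.0057 to 0.42 and 0.0086 to 0.47).

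Slc38a2, a sodium-coupled neutral amino acid carrier, had the only negative acetate difference among the 8 transporters. Under ethanol Slc1a4 and Slc1a5 were negative too, at -0.07 and -0.02. Slc38a2 had 416, 399 and 398 CPM in control, 369.9, 222 and 333 CPM in acetate and 360.4, 389.7 and 368 CPM in ethanol. All treated libraries of Slc38a2 lay below all controls, by -0.42 in acetate and -0.12 in ethanol. The acetate difference was -0.20 without acetate replicate 2 and -0.24 with the GC trend removed. Neither treatment passed the threshold in the fit of all 9 libraries, without acetate replicate 2, with the replicate block or with the GC trend removed. With block and GC removal together, Slc38a2 passed for acetate at adjusted p = 0.019 (highest over the alternatives 0.67). Slc6a9, the glycine transporter GlyT1, had 78.0 ± 5.13 CPM in control, 96.8 ± 18.1 in acetate and 93.0 ± 1.82 in ethanol. Its ethanol values did not overlap control, with a difference of 0.25 ± 0.14, adjusted p = 0.38, or 0.044 with the GC trend removed (range 0.014 to 0.74).

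The other transporters overlapped control under both treatments. Slc7a1, for cationic amino acids, had 241 ± 27.7, 301 ± 28.6 and 283 ± 21.9 CPM in control, acetate and ethanol. Slc1a4 and Slc1a5, which carry alanine, serine and cysteine, and glutamine in the case of Slc1a5, had 119 ± 8.08, 134 ± 11.8 and 113 ± 5.95 CPM, and 12.9 ± 1.69, 16.6 ± 2.64 and 12.7 ± 1.28 CPM. Slc1a4 was higher in acetate than in ethanol in every library.

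Of the 5 tRNA synthetases, which charge tRNAs with their amino acids, Aars and Nars lay above control in every treated library. Aars, for alanine, had 429, 398 and 460.3 CPM in control, 507, 743 and 550.3 CPM in acetate and 505, 536 and 522 CPM in ethanol. All treated values of Aars lay above control, and the treatments overlapped. The acetate difference was 0.47 ± 0.15, adjusted p = 0.20, or 0.038 with the GC trend removed (range 0.0093 to 0.53). The ethanol difference was 0.28 ± 0.15, adjusted p = 0.35, or 0.034 without acetate replicate 2 (range 0.0041 to 0.66).

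Nars, for asparagine, had 208, 189 and 219 CPM in control, 246, 236 and 254 CPM in acetate and 239, 239.7 and 236 CPM in ethanol. Treated libraries again lay above all controls. The acetate difference of Nars was 0.26 ± 0.10, adjusted p = 0.28. Adjusted p was 0.097 without acetate replicate 2 and 0.044 with the GC trend removed (range 0.022 to 0.64). Gars, Sars and Wars, for glycine, serine and tryptophan, had control means of 375, 194 and 34.7 CPM, acetate means of 379.7, 234 and 41.8 CPM and ethanol means of 375, 184 and 37.8 CPM, and overlapped control under both treatments.

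Among the remaining members, Stc2 (chromosome 11, 31357307 to 31370074), the secreted stanniocalcin 2, had 25.3, 21.9 and 25.9 CPM in control, 31.6, 42.8 and 38.5 CPM in acetate and 20.5, 25.4 and 23.2 CPM in ethanol. Acetate stood above all 6 other libraries, and ethanol overlapped control. Acetate exceeded ethanol by 0.68 ± 0.14 (SE, n = 3 per group), adjusted p = 0.033 with limma, 0.034 with the replicate block and 0.018 without acetate replicate 2. The call ended in a fit of the 6 libraries compared (0.12), without control replicate 1, 2 or 3 (0.069, 0.057 and 0.055), without acetate replicate 3 (0.055) and without ethanol replicate 1, 2 or 3 (0.14, 0.090 and 0.13). The range over the alternatives was 0.0041 to 0.14. Against control the acetate difference was 0.60 ± 0.14, adjusted p = 0.093, or 0.026 with the GC trend removed (range 0.01 to 0.33).

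Eif4ebp1, the translation brake that TORC1 releases, had 172, 168 and 143 CPM in control, 198, 259.6 and 144 CPM in acetate and 143, 132 and 103 CPM in ethanol. In all groups replicate 3 was the lowest. Acetate exceeded ethanol by 0.64, adjusted p = 0.14, and passed with the replicate block at 0.043 (range 0.012 to 0.41). Vldlr, a lipoprotein receptor, had 358, 332 and 334 CPM in control, 376, 229 and 313 CPM in acetate and 276, 275 and 265 CPM in ethanol. Ethanol lay below all controls, by -0.33 ± 0.17 with adjusted p = 0.33, and the gene fell at 0.022 without acetate replicate 2 (range 0.0024 to 0.69). Sesn2, a leucine-sensing inhibitor of TORC1, had 24.4 ± 3.15, 28.4 ± 6.96 and 28.6 ± 0.991 CPM, with overlap between every treatment and control.

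The neighbouring parts of the pathway were read from 9 further lists with 144 tested genes. Under acetate 0 of the 144 passed with limma and 0 with voom, with 20 at an unadjusted p under 0.05, near the 14.6% of all genes. Without acetate replicate 2, where 1.95% of all genes were higher, 1 of the 144 passed, namely Rragd, a GTPase of the TORC1 amino acid sensor, at 0.49 and adjusted p = 0.014 (range 0.0093 to 0.67). Under ethanol 1 rose and 3 fell, where 3.93% of all genes were called in either direction. Without acetate replicate 2 there were 12 and 16 of 144, near the shares of all genes, 10.2% and 11.3%. The gene that rose was Tyms, thymidylate synthase, at 0.49 ± 0.11 and adjusted p = 0.043. Those that fell were the proline enzyme Pycr1, at -0.60 ± 0.13 and 0.044, and the endoplasmic reticulum folding proteins Sdf2l1, at -0.68 ± 0.16 and 0.0499, and Pdia4, at -0.63 ± 0.12 and 0.025. Pycr1, also linked to ATF4, had 99.4, 87.1 and 87.1 CPM in control and 64.8, 59.0 and 56.2 CPM in ethanol, with no overlap. None of these 4 calls held without any one control or ethanol library. Over control replicates 1, 2 and 3 and ethanol replicates 1, 2 and 3 in turn, adjusted p was 0.22, 0.16, 0.061, 0.14, 0.19 and 0.14 for Tyms, and 0.22, 0.12, 0.10, 0.098, 0.19 and 0.18 for Pycr1. It was 0.21, 0.15, 0.13, 0.12, 0.16 and 0.21 for Sdf2l1, and 0.14, 0.078, 0.064, 0.081, 0.12 and 0.11 for Pdia4. Acetate replicate 1 also decided Tyms (0.051), Pycr1 (0.054) and Sdf2l1 (0.060).

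The 16 tested genes of the other arms of the unfolded protein response, driven by XBP1 and ATF6, had a median of -0.23 under ethanol with 3 positive, where that of the 35 members was 0.13. Without acetate replicate 2, 8 of the 16 fell and 0 rose, where 11.3% of all genes were lower and 10.2% higher. Of the 20 genes of eIF2, its kinases, its exchange factor and its phosphatase, 0 passed in any comparison with limma or voom, and 2, 3 and 2 had an unadjusted p under 0.05 for acetate, for ethanol and between them. Without acetate replicate 2 there were 4 higher and 1 lower of the 20 under ethanol, where 10.2% and 11.3% of all genes were. These included Eif2ak2, the kinase PKR, at 0.73 and adjusted p = 0.00059 (range 0.00031 to 0.35). Impact, which restrains the kinase GCN2, was at 0.34 and 0.021 (range 0.0088 to 0.64). Eif2ak3, the endoplasmic reticulum kinase PERK, was at -0.31 and 0.010 (range 0.0066 to 0.38). Between acetate and ethanol, Vegfa at 0.74 ± 0.15 and adjusted p = 0.031, and Sdf2l1 at 0.75 ± 0.16 and 0.035, were the 2 of 144 that passed. These 2 were picked for naming after their values were seen. Vegfa lost the call without control replicate 1 (0.063), acetate replicate 3 (0.054) or ethanol replicate 1, 2 or 3 (0.13, 0.15 and 0.051). Sdf2l1 lost it without control replicate 1, 2 or 3 (0.074, 0.072 and 0.063), acetate replicate 1 (0.066) or ethanol replicate 1, 2 or 3 (0.099, 0.11 and 0.16).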

How the data were processed

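The authors deposited log2 values of TMM-normalised counts for 26202 genes in 9 libraries. Per the submitters' processing notes, the build was mm10 and the tools were STAR 2.7.8a, Bowtie2 2.2.5 and Partek, whose roles and order are not recorded. The counting step was not given in the sources used here. The floor of each library (an offset of 1e-05 read) was subtracted to give TMM-scaled CPM. From it, reads were recovered, and 85.6% to 87.2% of values between 1 and 20 reads were whole within 0.02.

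Genes whose mean reached 1 CPM were tested with limma 3.58.1 in R 4.3.3 on log2(CPM + 1), with 3 group means over all 9 libraries, a variance trend, Benjamini-Hochberg adjustment over 12868 genes and a threshold of 0.05. The procedure was tested on simulated data. The simulated counts had the same dispersion for every gene, no GC trend and no deviations shared between libraries. They therefore cannot show how the fit handles acetate replicate 2. GENCODE M21 (GRCm38) gave positions, lengths and GC content. Length and GC content are those of the longest annotated transcript of each gene, which need not be the one expressed. The 36 members and the further lists were chosen with earlier results of these data known. All members were named. Of each further list, at most 3 members past the threshold were named per treatment, by size of difference.

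Replicate numbers come from the labels. Deviations from group means of same-numbered libraries were correlated across genes. The correlations were 0.55, 0.36 and 0.67 for control with ethanol and 0.15, 0.25 and 0.61 for acetate with ethanol. For control with acetate they were 0.25, -0.10 and 0.41. Different-numbered libraries gave -0.60 to 0.25 for control with ethanol and -0.48 to 0.18 for acetate with ethanol. They gave -0.48 to 0.26 for control with acetate. Some same-numbered pairs with acetate thus lay below different-numbered ones. Counts of calls with the block are therefore given for each comparison. Blocked values of single genes are given only for some of the members. The 18 alternatives covered pseudocount (0.1), no minimum level (21051 genes), median-of-ratios scaling, the libraries in the fit, the replicate block, the GC trend (lowess, span 0.3), voom, and the omission of single libraries. Ranges of adjusted p cover 17 of them. The block without acetate replicate 2 is left out of the ranges, since its variances came from the trend alone, without the genes' own spread.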

Additional observations from a re-analysis of the deposited data

Results flagged for a closer look

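Pck2 stood out because every acetate library lay above every control library and every ethanol library below. Its acetate value exceeded its ethanol value by 0.54 in log2(CPM + 1), adjusted p = 0.14 with limma. Acetate replicate 2 held 188 CPM, and the other 2 acetate libraries held 118 CPM each, beside a highest control value of 118 CPM.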

How the results depend on the processing

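Changes of sign and changes of call cannot be set against each other here, since several alternatives leave the difference itself unchanged. These are the replicate block, the fit of the 6 libraries compared and the fit with no minimum level. Leaving out a library of the group not compared also changes only the estimate of spread. Of 1890 member values over 18 alternatives, 61 changed sign, and in 0 of these was either value past the threshold. Among the 30 member differences called in the fit of all libraries, without acetate replicate 2, with the block or with GC removal, 540 alternative values comprised 409 on the same side of the threshold, 24 that lost and 105 that gained the call, and 2 that reversed: Atf5 (0.0073 against -0.15) and Vldlr (-0.0233 against 0.14), both for acetate against ethanol without acetate replicate 1. Over single libraries left out, Atf5 ran from -0.3484 to 0.0073 and Vldlr from -0.0233 to 0.3331.

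Members called higher, lower and all genes called were as follows. For acetate against control (0, 0 and 129), the 6 libraries compared gave 20 genes, the replicate block 293 genes, GC removal 11 higher members and 650 genes, block with GC removal 18 and 1 members and 2248 genes, and the block without acetate replicate 2 gave 19 higher members and 2773 genes. For ethanol against control (1, 0 and 506), these fits gave 9, 2 and 3443, the block 2 higher and 1074 genes, GC removal 8, 1 and 2045, block with GC removal 11, 1 and 4618, and the block without acetate replicate 2 gave 16, 3 and 6466. For acetate against ethanol (2, 0 and 480), median-of-ratios scaling gave 1 higher, the 6 libraries 0 and 107 genes, the block 823 genes, GC removal 6, 1 and 1428, block with GC removal 10, 3 and 3919, and the block without acetate replicate 2 gave 11, 3 and 4262. Apart from smaller sets of libraries, the cause was not tested. With single libraries left out, acetate against control gave 0 to 448 genes with 0 to 3 higher and 0 lower members, ethanol against control 98 to 2766 with 0 to 7 and 0 to 2, and acetate against ethanol 103 to 1108 with 0 to 3 and 0.

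The group size of 3 and acetate replicate 2 limited these comparisons. Counts of calls without acetate replicate 2 rest on 2 acetate libraries. Cbs, at 0 to 0.254 CPM where 1 read was worth 0.0231 to 0.0348 CPM, was not tested.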
